A study of Homo sapiens with 4 samples.

Results

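The mRNAs of 10 glycolytic enzymes (HK1, HK2, GPI, PFKP, ALDOA, GAPDH, PGK1, ENO1, PKM and LDHA) were followed through an RNA immunoprecipitation of YTHDF3, a reader protein of the cytoplasm that recognises the mRNA modification N6-methyladenosine (m6A). They were chosen by gene symbol from the 36203 genes of the table. All 10 reached 1 FPKM (fragments scaled to gene length and to library size) in at least 2 of the 4 libraries, the minimum for testing, which 12848 genes met. The series holds 2 input libraries (RNA before the antibody step) and 2 of what a YTHDF3 antibody recovered (RIP), from cells in DMEM with serum and no treatment named in the labels. MDA-MB-231, a human breast cancer line, is given as the cell line, while its derivative MDA-MB-231Br, selected for growth in the brain, stands in the growth protocol. The extraction text also speaks of embryos and of an m6A antibody, whereas the antibody field of the RIP samples gives YTHDF3. As labelled, the groups differ only in the antibody step. Within each group the title of library 1 ends in SZ and that of library 2 in Z. The labels give no meaning for this, and the libraries of a group were treated as replicates. No RIP made with a control antibody was analysed here, so YTHDF3 binding and other retention in the procedure cannot be told apart.

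Glycolysis converts glucose to pyruvate in the cytosol. Its early enzymes spend ATP to phosphorylate and split the sugar, its later enzymes regain ATP and NADH, and lactate dehydrogenase turns pyruvate into lactate and regenerates NAD+. Many tumour cells run this route at a high rate even with oxygen present, and most of its enzymes have tissue-specific relatives encoded by other genes. YTHDF proteins recognise m6A, which is placed mostly at short adenosine motifs and is frequent near stop codons.

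GGACT, written as DNA, is a common form of the m6A motif, and it was looked for on the sense strand of 1 principal transcript per gene (GENCODE release 29). Where transcripts ranked equally, the one with the longest coding sequence was taken, and then the longest transcript. The 10 transcripts held 41 matches, from 0 in ALDOA to 9 in HK2. The matches within 200 bases of the end of the coding sequence, in HK2, PFKP and LDHA, and both matches of GAPDH, the mRNA with the lowest RIP to input ratio, are shown with the motif in capitals. Positions are counted from the last coding base before the stop codon.
HK2, 24 bases after (3′ UTR): atcggaagGGACTtcctcttt
HK2, 129 bases after (3′ UTR): accccactGGACTgggttttg
PFKP, position -37 (coding): gacgtgtcGGACTcaggccag
PFKP, 40 bases after (3′ UTR): gccaccgtGGACTgtctgttt
LDHA, 120 bases after (3′ UTR): tttaagatGGACTgggaaaaa
GAPDH, position -486 (coding): tcgtggaaGGACTcatgacca
GAPDH, position -1171 (5′ UTR): ttgggctgGGACTggctgagc
A match describes the sequence only, since m6A was not measured in these files.

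Most markers matched the labelled line. Of 7 markers typical of MDA-MB-231, 6 were at 1 FPKM or more in both inputs, among them VIM (727 and 1322 FPKM) and CD44 (359 and 489 FPKM), whereas SPARC was at 0.132 and 0 FPKM. Of 7 markers low or absent in that line, ERBB2 (9.07 and 5.77 FPKM) and EPCAM (11.98 and 3.88 FPKM) were above 1 FPKM in both inputs. ESR1, CDH1, KRT5 and the immune markers PTPRC and CD3E were listed at 0 in all 4 libraries, and markers of fibroblasts, endothelium and embryonic cells stayed below 1 FPKM. RIP 2 carried an excess of chromosome 1, which held 35.9% of its length-weighted signal and 9.20% to 10.6% in the other libraries. Chromosome 10 was raised in RIP 2 by a median of 0.67 on the log2 scale over RIP 1. This touches ENO1 on chromosome 1 and HK1 and PFKP on chromosome 10, and it takes up a share of the signal that other genes in RIP 2 are scaled against.

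Among the enzymes of the early phase, GPI and ALDOA were lower in RIP than in input, and the hexokinases and PFKP were not separated from input. HK1, the hexokinase that most tissues use (ENSG00000156515, chromosome 10, 69269984 to 69401884 in GRCh38), was at 23.5 and 26.6 FPKM in input, at 18.0 FPKM in RIP 1 and at 88.6 FPKM in RIP 2. One RIP library was thus below both inputs and the other above, and HK1 did not pass (log2 fold change 0.67, SE 0.76, n = 2 per group, limma adjusted p = 0.499). HK2, the hexokinase of many tumours and of insulin-sensitive tissue (ENSG00000159399, chromosome 2, 74833981 to 74893359), was at 8.79 and 24.7 FPKM in input, against 11.4 and 42.3 FPKM in RIP. The inputs of HK2 differed by 2.81 times and its RIP libraries by 3.72 times, and the groups overlapped (log2 fold change 0.55, SE 0.78, limma adjusted p = 0.587). HK1 and HK2 were the 2 enzymes of the 10 with a positive fold change, and neither sign held without RIP 2 (-0.45 for HK1 and -0.36 for HK2). The sign of HK2 also turned without input 1 (-0.15). Without RIP 1, HK1 passed as higher (1.79, limma adjusted p = 0.0141), with RIP 2, which carries the chromosome 10 excess, as the one RIP library left. In every such fit with 1 RIP library the 2 inputs alone supply the replicate spread, and the lone library is assumed to vary as they do, so the SE of HK1 was 0.34 there.

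GPI, which interconverts the phosphates of glucose and fructose (ENSG00000105220, chromosome 19, 34359480 to 34402413), was at 70.8 and 118 FPKM in input, against 26.5 and 20.95 FPKM in RIP. Both RIP libraries lay below both inputs, with a log2 fold change of -1.91 (SE 0.49, limma adjusted p = 0.0279). PFKP, the platelet form of phosphofructokinase, which catalyses the committed step (ENSG00000067057, chromosome 10, 3066333 to 3137712), was at 51.0 and 74.3 FPKM in input, at 25.5 FPKM in RIP 1 and at 94.2 FPKM in RIP 2. The RIP libraries of PFKP lay on either side of the inputs (log2 fold change -0.32, SE 0.70, limma adjusted p = 0.730). With RIP 1 as the lone RIP library and the spread of the inputs alone, the value of PFKP was -1.24 (SE 0.39, limma adjusted p = 0.0444), and with RIP 2 alone it was 0.61. ALDOA, the aldolase that splits fructose bisphosphate (ENSG00000149925, chromosome 16, 30064164 to 30070457), was at 151 and 213 FPKM in input, against 57.5 and 45.8 FPKM in RIP. Its groups did not overlap, and the log2 fold change was -1.79 (SE 0.49, limma adjusted p = 0.0331).

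**Figure D1:**
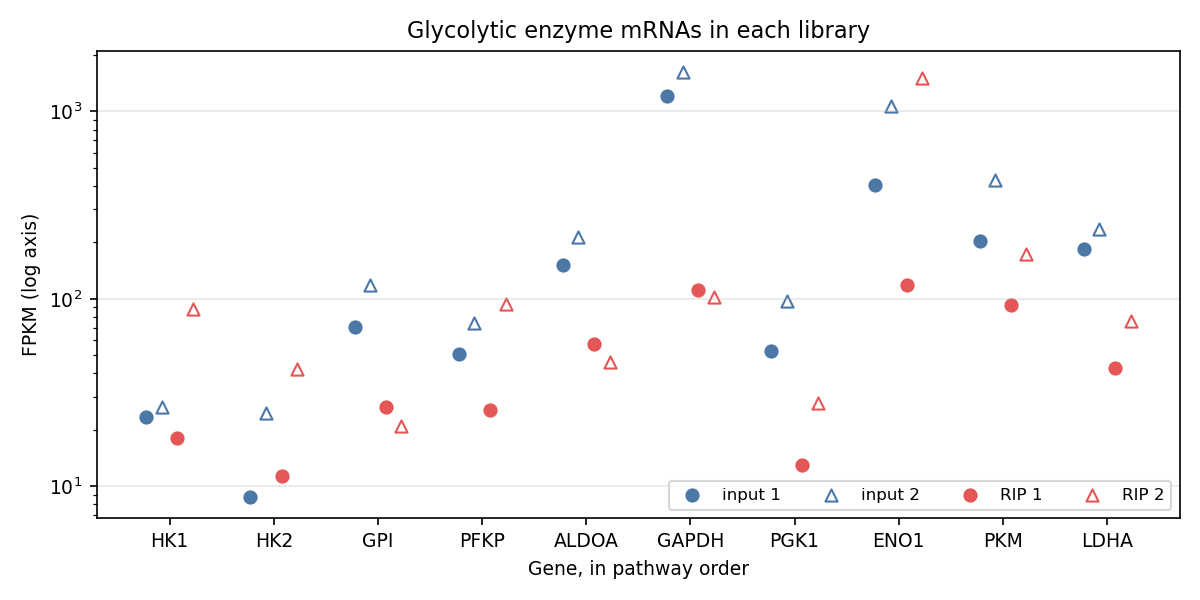
FPKM (log axis) of the 10 glycolytic enzyme mRNAs in pathway order, with 1 point per library: blue for input, red for RIP, filled circles for libraries 1 and open triangles for libraries 2. For GPI, ALDOA, GAPDH, PGK1, PKM and LDHA both red points lie below both blue points, and ENO1 spans 119 to 1499 FPKM between the RIP libraries.

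In the later phase GAPDH had the largest difference of the 10. GAPDH, which oxidises glyceraldehyde phosphate and is widely used as a reference gene (ENSG00000111640, chromosome 12, 6533927 to 6538374), was at 1207 and 1624 FPKM in input, against 111 and 102 FPKM in RIP. The RIP libraries were close to each other and lay far below both inputs, with means of 107 ± 6.46 FPKM in RIP and 1415 ± 295 FPKM in input (SD, n = 2 each). The log2 fold change was -3.70 (SE 0.59, limma adjusted p = 0.0102). Among the protein-coding genes GAPDH ranked 16 and 9 by FPKM in the inputs and 436 and 530 in RIP. PGK1, which makes ATP from bisphosphoglycerate (ENSG00000102144, chromosome X, 77910739 to 78129296), was at 52.3 and 97.0 FPKM in input, against 12.9 and 27.7 FPKM in RIP. Its groups did not overlap (log2 fold change -1.86, SE 0.58, limma adjusted p = 0.0453), and it missed the threshold without RIP 1 (adjusted p = 0.0697) and with a pseudocount of 0.1 (adjusted p = 0.0577).

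ENO1, the enolase of most tissues (ENSG00000074800, chromosome 1, 8861000 to 8879250), was at 402 and 1066 FPKM in input, at 119 FPKM in RIP 1 and at 1499 FPKM in RIP 2. RIP 1 was the lowest of the 4 libraries and RIP 2 the highest, and the log2 fold change of -0.63 had an SE of 1.25 (limma adjusted p = 0.702). With the spread of the inputs alone, it was -2.45 without RIP 2 (SE 0.64, adjusted p = 0.0269) and 1.19 without RIP 1 (SE 0.67, adjusted p = 0.190). PKM, the pyruvate kinase gene whose splice forms this table does not separate (ENSG00000067225, chromosome 15, 72199029 to 72231822), was at 203 and 429.5 FPKM in input, against 93.2 and 174 FPKM in RIP. Both RIP libraries lay below both inputs, but the inputs themselves differed by 2.12 times, and PKM did not pass (log2 fold change -1.20, SE 0.64, limma adjusted p = 0.169). Without RIP 2, again with the spread of the inputs alone, the value was -1.65 (SE 0.53, limma adjusted p = 0.0477). LDHA, the lactate dehydrogenase subunit typical of muscle and tumours (ENSG00000134333, chromosome 11, 18394388 to 18408425), was at 184 and 236 FPKM in input, against 42.8 and 76.4 FPKM in RIP. LDHA was lower without overlap (log2 fold change -1.84, SE 0.53, limma adjusted p = 0.0374). Quantile normalization ended this call (-1.59, limma adjusted p = 0.0585).

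Of the 10 mRNAs, 5 were thus called lower in RIP (GPI, ALDOA, GAPDH, PGK1 and LDHA) and none higher (limma, threshold 0.05 after Benjamini-Hochberg adjustment), beside 24.3% of all genes tested called lower and 15.4% called higher. In 6 of 10 both RIP libraries were below both inputs, beside 40.1% of all genes, and in none were both above, beside 35.7%. The median log2 fold change was -1.49, beside -0.10 for all genes tested. All 5 called mRNAs lie outside chromosomes 1 and 10, among the 7 of the 10 that do. With genes outside those chromosomes fitted alone, 5 of the 7 were called lower, beside 3119 of 10937 genes. The excess in RIP 2 bears on lower calls within those chromosomes, so this placement is no separate support. Whether the 2 libraries of a group come from separate cultures is not stated, so p-values here speak of library-to-library spread alone, part or all of which may be technical. With the libraries rescaled to TPM, a scaling that moved the median of all genes to 0.96, GAPDH alone of the 5 passed (log2 fold change -2.51, adjusted p = 0.0192). Of the 10, GAPDH alone also passed with no filter on low values, and with either input left out no gene of the table passed.

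**Figure D2:**
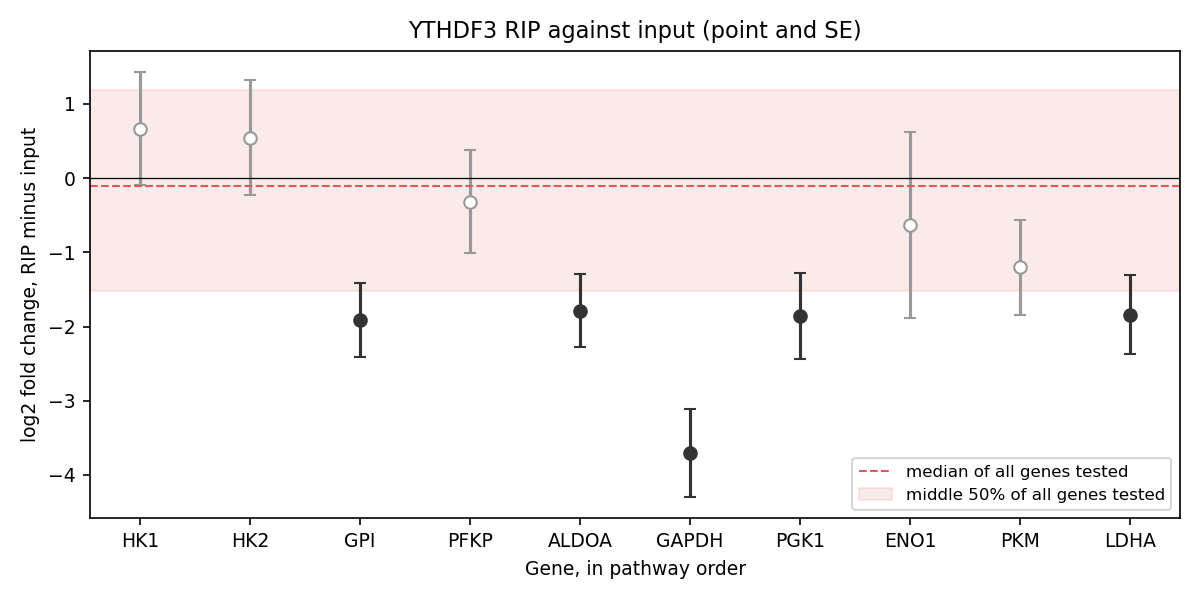
Log2 fold change of RIP minus input on log2(FPKM + 1) for the 10 mRNAs, with SE (n = 2 per group); filled points passed at an adjusted p under 0.05. GPI, ALDOA, PGK1 and LDHA lie between -1.91 and -1.79 and GAPDH at -3.70, below the band of the middle 50% of all genes tested, and the wide bar of ENO1 shows how its RIP libraries differed.

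The libraries of a group differed for these mRNAs, and not in RIP alone. All 10 were higher in input 2 than in input 1, beside 46.7% of all genes tested, with ratios from 1.13 for HK1 to 2.65 for ENO1 and 2.81 for HK2. Together the 10 summed to 2353 FPKM in input 1 and 3909 FPKM in input 2. In RIP the sum was 518 FPKM in RIP 1 and 2172 FPKM in RIP 2, of which ENO1 alone made up 23.0% and 69.0%. Without ENO1 the sums were 1951 and 2842 FPKM for the inputs and 399 and 672 FPKM for RIP. The sum of the other 9 was thus lower in each RIP library than in each input. All genes, however, summed to 700141 and 690869 FPKM in the inputs and to 301226 and 301483 FPKM in RIP. As a share of these totals the 10 made up 0.336% and 0.566% in the inputs and 0.172% and 0.720% in RIP. Of the FPKM of protein-coding genes alone they made up 0.728% and 1.22% in the inputs and 0.186% and 0.759% in RIP. Of the length-weighted signal they made up 0.659% and 1.21% in the inputs and 0.172% and 0.693% in RIP. The share in RIP 2 thus lay above both inputs on the total of all genes and between the inputs on the other measures. GAPDH alone was 51.3% and 41.5% of the sum of the 10 in the inputs.

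In RIP, 7 of the 10 were higher in RIP 2 than in RIP 1, and GPI, ALDOA and GAPDH were lower there. On log2(FPKM + 1) the median difference was 0.97 for the 10, beside -0.38 for all genes tested. ENO1 had a difference of 3.64 on log2(FPKM + 1), where the 56 tested protein-coding genes within 5 Mb had a median of 1.82 and all 56 were higher in RIP 2. For HK1 the difference was 2.24, beside a median of 0.89 over 51 neighbours, and for PFKP 1.85, beside 1.19 over 21. These 3 genes were thus higher in RIP 2 together with their neighbourhood, and above its median. HK2, on chromosome 2, was also higher in RIP 2, by 1.81, where its 53 neighbours had a median of -0.78. PGK1, PKM and LDHA had 1.04, 0.90 and 0.82, beside neighbour medians of -0.08, -0.84 and -0.18. With RIP 2 shifted by the median of each chromosome, the log2 fold changes of RIP against input were 0.33 for HK1, -0.65 for PFKP and -1.46 for ENO1, none of which passed (limma, adjusted p = 0.630, 0.294 and 0.145).

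**Figure D3:**
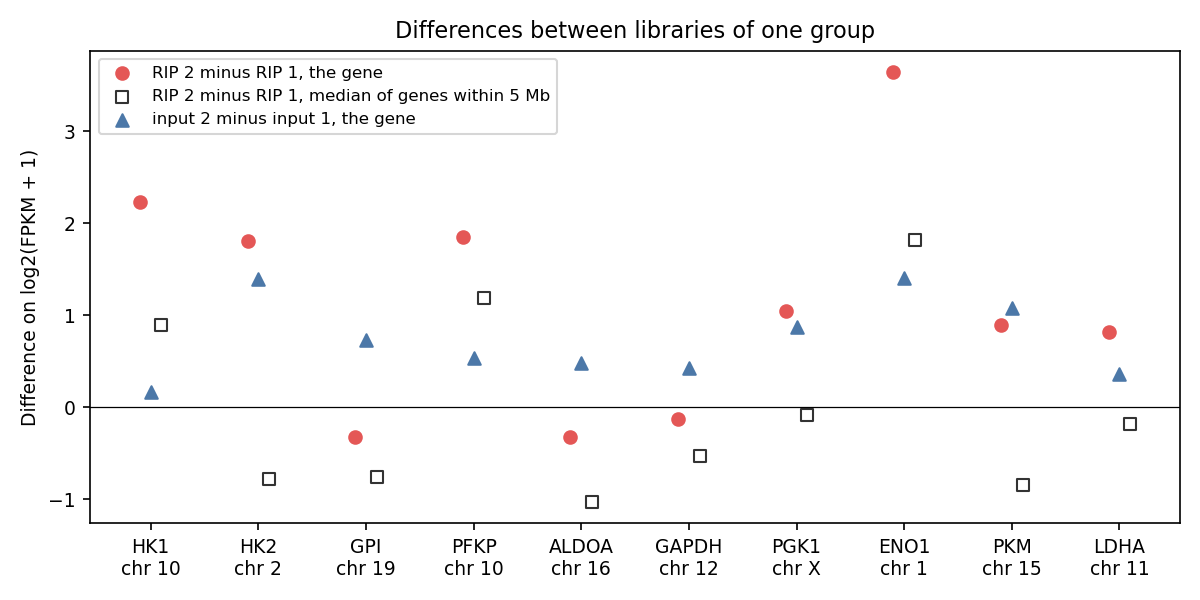
Differences between libraries of one group on log2(FPKM + 1): red circles for RIP 2 minus RIP 1 and blue triangles for input 2 minus input 1 of each gene, open squares for the median RIP difference of protein-coding genes within 5 Mb. Every blue triangle is above 0, the squares are above 0 for HK1, PFKP and ENO1, and the red circles lie above the squares for all 10.

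Most tissue-restricted isozyme genes gave little or no signal. HK3 (another hexokinase), PKLR (liver and red cell pyruvate kinase) and the germ cell genes PGK2, LDHC and GAPDHS were listed at 0 in all 4 libraries. ALDOC (brain aldolase) was below 1 FPKM in each. ENO2, the neuronal enolase, had 2.38 and 6.15 FPKM in the inputs, far below the 402 and 1066 FPKM of ENO1. The other phosphofructokinases, PFKL and PFKM, had 5.41 and 12.02 FPKM and 4.56 and 12.4 FPKM in the inputs, below the 51.0 and 74.3 FPKM of PFKP. HKDC1, which lies beside HK1 on chromosome 10, was listed at 0 in both inputs and at 0.766 and 4.76 FPKM in RIP. LDHB, the heart-type lactate dehydrogenase subunit, was present at a level like that of LDHA, with 209 and 351 FPKM in the inputs.

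Transcript length moved with the fold change across the table. Over 10852 protein-coding genes tested, Spearman's rho between log2 fold change and transcript length was 0.35, a description across genes that share libraries and are not independent. Genes of up to 1849 bases, the shortest of 5 classes of about equal size, had a median log2 fold change of -1.51, and genes of 5496 bases or more had 0.82. ALDOA (1603 bases), in the shortest class, had -1.79, near the median of that class. GAPDH (1875 bases), ENO1 (2345), LDHA (2416) and PFKP (2654) were in the next class, whose median was -0.12. GAPDH lay just past the edge of the shortest class, so its class depends on the transcript taken. GPI (4194 bases) and PGK1 (4887 bases) were in the fourth class, with a median of 0.53, and had -1.91 and -1.86. The transcripts taken for GPI and PGK1 have 3′ UTRs of 2380 and 3469 bases, and their class rests on that choice. HK2 was the longest, at 5772 bases. Over all 10852 genes rho was 0.36 with the length of the coding sequence, much as with that of the whole transcript. Among the 10 it was 0.73 with the coding sequence, the highest of the measures tried, and 0.25 with the whole transcript. HK1, HK2 and PFKP weigh on this value, and without RIP 2 their log2 fold changes were -0.45, -0.36 and -1.24. The other enzymes then ran from -3.64 for GAPDH to -1.62 for ALDOA, so HK1, HK2 and PFKP stayed the highest of the 10. They have the longest coding sequences of the 10, with 2751 bases each for HK1 and HK2 and 2352 for PFKP. LDHA, with 996, and GAPDH, with 1005, have the shortest. The part of length in these results was not tested.

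**Figure D4:**
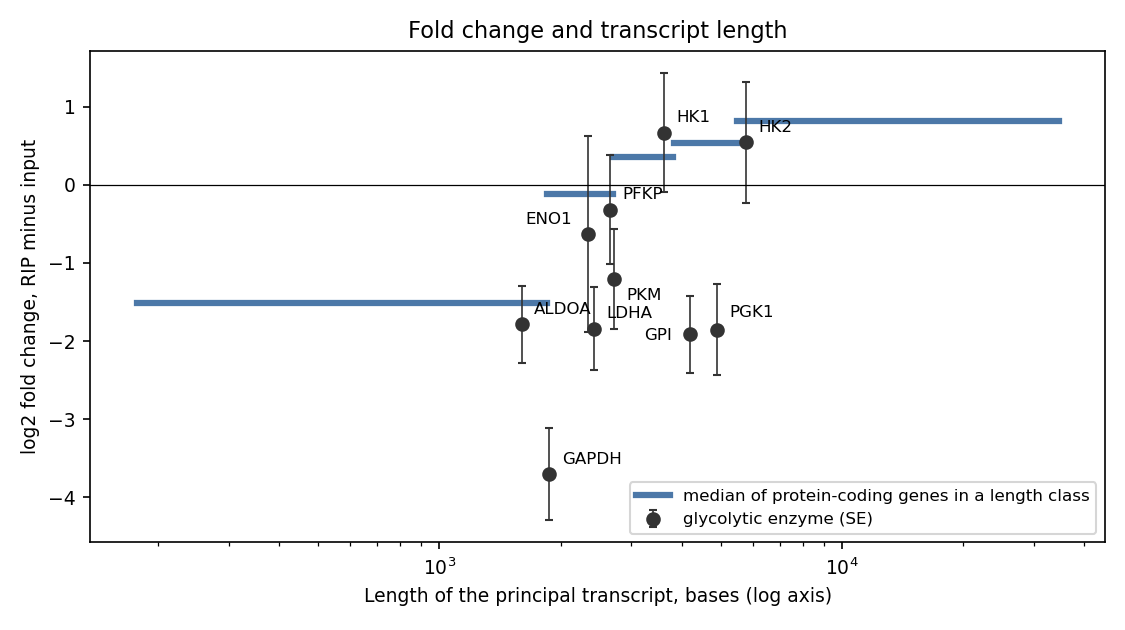
Log2 fold change of RIP minus input (with SE, n = 2 per group) against the length of the principal transcript (log axis) for the 10 mRNAs; blue bars mark the median of all protein-coding genes tested in each of 5 length classes. The bars rise from -1.51 to 0.82 with length, and GAPDH, GPI and PGK1 lie well below the bar of their class. The class of a gene depends on the transcript taken for it.

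The motif matches shown above were set beside these values. HK2 and PFKP, with 2 matches each within 200 bases of the end of the coding sequence, had log2 fold changes of 0.55 and -0.32. LDHA had 1 such match and -1.84, and the other 7 had none, with values from -3.70 for GAPDH to 0.67 for HK1. HK1 has a match at position -201, just outside the window, so its place among the 7 depends on the cutoff. Over the protein-coding genes tested, 37.7% held at least 1 match in that window and 91.3% in the whole transcript. Their median log2 fold change was -0.04 with no match in the window, 0.26 with 1 and 0.65 with 2 or more. ALDOA was the one transcript of the 10 with no GGACT anywhere. PKM had the highest density, 2.21 matches per kilobase, beside a median of 0.92 over the table. Density alone had a rho of 0.14 with the fold change over the table.

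Processed pseudogenes share sequence with several of these enzymes, so reads can be split between copies and the levels of the parents are uncertain to that extent. The annotation names 62 copies of GAPDH, and together they were at 205 and 321 FPKM in input, against 29.1 and 22.9 FPKM in RIP. That was 14.5% to 20.7% of the sum of GAPDH and its copies. Of the 13 GAPDH copies tested, 12 were called lower and none higher, beside 24.3% and 15.4% of all genes tested. This is the direction of the parent, but with reads split between copies it is not separate evidence. The remaining copy, GAPDHP62, was at 1.91 and 1.19 FPKM in input, against 7.54 and 2.73 FPKM in RIP (limma adjusted p = 0.126). The 6 LDHA copies made up 24.4% to 33.7% of the sum with their parent, and of 5 tested 3 were lower. Copies of PKM, ENO1, PGK1 and ALDOA made up at most 3.46% of the sum with their parent in each library. HK2 has 1 copy, with 4.73% to 8.15%.

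Beyond the 10, other enzymes of glycolysis were lower or did not pass, with 3 of 9 tested called lower and none higher (median log2 fold change -1.04). LDHB was at 209 and 351 FPKM in input, against 53.3 and 65.4 FPKM in RIP (-2.18, limma adjusted p = 0.0238). TPI1, the triose phosphate isomerase, was at 233 and 253 FPKM in input, against 79.5 and 58.2 FPKM in RIP (-1.82, limma adjusted p = 0.0323). PGAM4, a copy of the phosphoglycerate mutase gene PGAM1 that can share its reads, had -1.41 (limma adjusted p = 0.0486). PGAM1 itself, on chromosome 10, was at 80.2 and 86.3 FPKM in input, against 31.9 and 43.6 FPKM in RIP, and missed the threshold (-1.14, adjusted p = 0.0894).

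Regulators and transporters had positive medians, 0.66 and 1.03, which were 0.22 over 2 genes and 0.16 over 4 genes outside chromosomes 1 and 10, with no gene called higher there. Of 4 regulators of the fructose bisphosphate that activates phosphofructokinase, 1 was higher and none lower. That one was PFKFB3, a kinase that makes the activator, on chromosome 10, at 6.79 and 9.29 FPKM in input, against 31.0 and 71.8 FPKM in RIP (2.43, limma adjusted p = 0.0212). PFKFB4 had 1.05 (adjusted p = 0.0840) and TIGAR, a phosphatase that lowers that activator, -0.61 (adjusted p = 0.350). Of 6 glucose and lactate transport genes tested, 1 was higher and 1 lower. SLC16A1, the lactate carrier MCT1 on chromosome 1, was at 2.45 and 1.66 FPKM in input, against 7.78 and 20.8 FPKM in RIP (2.19, limma adjusted p = 0.0329). BSG, the chaperone of such carriers, fell by 1.90 on the log2 scale, from 271 and 148 FPKM to 69.7 and 40.1 FPKM (limma adjusted p = 0.0410). The call of BSG was lost with a pseudocount of 0.1, with no filter, after quantile normalization and with TPM. SLC2A1, the glucose transporter GLUT1 on chromosome 1, was at 60.7 and 44.2 FPKM in input, against 101 and 507 FPKM in RIP, and did not pass (2.11, adjusted p = 0.0778). Without RIP 2 the medians were 0.64 for the regulators and 0.65 for the transporters, beside -0.03 for all genes tested. With TPM the counts called higher were 2 regulators and 4 transporters, beside 4573 of all 12848 genes tested. With no filter they were 1 and 0, beside 718 of 18496.

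Downstream of pyruvate, 7 of 13 genes of the pyruvate dehydrogenase list were lower and 2 higher. MPC1 and MPC2, which form the mitochondrial pyruvate carrier, had -3.08 and -2.50 (limma adjusted p = 0.00907 and 0.0147; MPC2 is on chromosome 1). PDP1, the phosphatase that activates pyruvate dehydrogenase, went the other way, at 14.3 and 14.2 FPKM in input, against 106 and 73.8 FPKM in RIP (2.55, limma adjusted p = 0.0123). In the TCA cycle 12 of 20 were lower and none higher, led by SDHD, a membrane subunit of succinate dehydrogenase (-3.26, limma adjusted p = 0.00910), and the isocitrate dehydrogenase genes IDH2 (-1.76, adjusted p = 0.0146) and IDH3G (-2.72, adjusted p = 0.0147). IDH3G was listed at 0 in RIP 2. The pentose phosphate pathway had 5 of 7 lower and none higher, led by the transketolase gene TKT (-2.28, limma adjusted p = 0.0150), RPE (-2.13, adjusted p = 0.0242) and RPIA (-2.24, adjusted p = 0.0246). In gluconeogenesis 1 of 4 was lower, the glucose phosphatase gene G6PC3 (-1.71, limma adjusted p = 0.0387), while FBP1 had -1.95 (adjusted p = 0.0526) and PCK2 0.67 (adjusted p = 0.251). Without RIP 2 the medians were -1.78 for pyruvate dehydrogenase, -1.76 for the TCA cycle, -1.67 for the pentose phosphate pathway and -1.15 for gluconeogenesis. That of all genes tested was -0.03. With rescaling to TPM the counts of lower genes in these lists, in the same order, were 2, 2, 0 and 0, beside 1500 of all 12848 genes tested. With no filter they were 5, 5, 3 and 0, beside 2133 of 18496. The other enzymes of glycolysis had no lower call under either setting. On the deposited values, with all libraries and the filter, the lists were read beside the 24.3% of all genes called lower and 15.4% called higher.

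**Figure D5:**
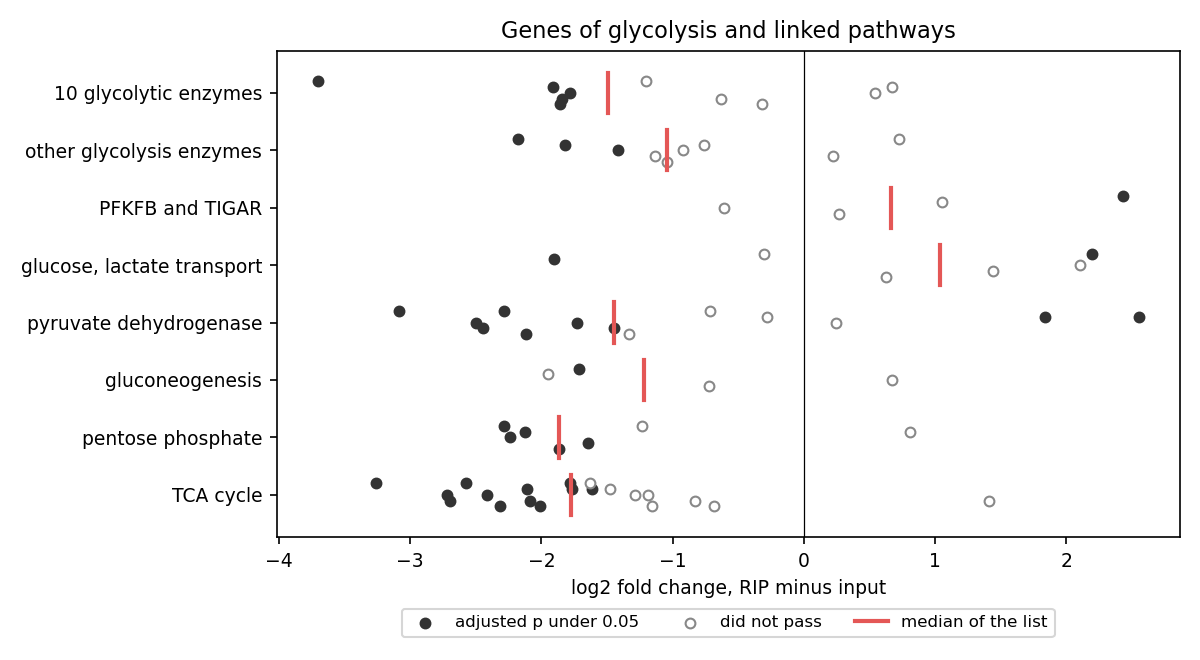
Log2 fold change of RIP minus input for each gene tested of the 10 glycolytic enzymes and 7 linked lists, in rows, with filled points at an adjusted p under 0.05, open points that did not pass and a red bar at the median of the list. The medians are below 0 for the enzyme lists, from -1.87 for the pentose phosphate pathway to -1.04 for other glycolysis enzymes, and above 0 for the PFKFB list (0.66) and the transporters (1.03).

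The genes most like the 10 in level and pattern, by Euclidean distance over the 4 libraries between their log2(FPKM + 1) and the median of the 10, were HSPA9, DDB1, TARS, BAG6 and PSMB4, with distances from 0.42 to 0.61. HSPA9, the nearest, was at 78.3 and 151 FPKM in input, against 31.4 and 81.1 FPKM in RIP.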

How the data were processed

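The table gives 1 value per gene for 2 input and 2 YTHDF3 RIP libraries, grouped by title and numbered in accession order. The authors deposited FPKM values, as far as the values show: no header or label names the unit. Per the submitters' processing notes, HISAT2 and GRCh38 were used. For the counter, annotation and strand setting, nothing is given in the sources used here, and reads of a gene and of an antisense partner cannot be told apart. Read depth is not stated. If the commonest low value is 1 read, the inputs held about 6143570 and 7310960 reads and the RIP libraries about 10378300 and 3105060. Of low values, only 30.4% to 32.5% were whole within 0.03 of a read, so no count test was run.

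Of 36217 rows, 14 repeated identifiers were dropped. Positions, lengths and transcripts come from GENCODE 29 (36125 identifiers matched). Genes that reached 1 FPKM in 2 or more libraries were compared on log2(FPKM + 1), which understates changes of low genes, with limma 3.58.1 in R 4.3.3 (empirical Bayes with trend, no block, two-sided, Benjamini-Hochberg over 12848 genes). The fit was tested on simulated data. The members and gene lists were chosen with earlier results of these data known. All 10 members are named, and of each list the 3 genes with the smallest p. Isozymes, HKDC1, PGAM1 and GAPDHP62 were named after their values were seen. The alternatives were another pseudocount, no filter, quantile and TPM scaling, a shift of RIP 2 per chromosome, genes outside chromosomes 1 and 10 alone, each library left out, a block and no trend.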

Additional observations from a re-analysis of the deposited data

How the results depend on the processing

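The count of called genes, 5107, fell to 2851 (718 higher, 2133 lower) with no filter on low values and ranged from 0 to 7257 with 1 library left out. No gene passed without input 1 (limma; with an unadjusted p under 0.05 there were 737 higher genes and 2299 lower) or without input 2 (608 and 2257). Higher genes made up 38.8% of calls, 52.1% after quantile normalization, 50.3% with RIP 2 shifted per chromosome and 75.3% with TPM. Of the 10 enzymes, the 5 called lower became 4 with a pseudocount of 0.1 (PGK1 lost), 4 after quantile normalization (LDHA lost), 1 with no filter, 1 with TPM, and 0 to 8 with 1 library left out, and those called higher 0 to 1. Their median of -1.49 became -0.30 with TPM, or -1.26 relative to all genes (-1.39 on the deposited values), and lay between -1.88 and -1.04 with 1 library left out. Signs turned for ENO1 (0.94 after quantile normalization, 0.57 with TPM) and PFKP (0.87 with TPM). With 1 library left out, HK1 ran from -0.45 to 1.79, HK2 from -0.36 to 1.45, PFKP from -1.24 to 0.61 and ENO1 from -2.45 to 1.19. The cause was not tested. GAPDH kept its sign and passed in all settings but the removal of either input. With the title suffix as a replicate block, 5 of the 10 were lower and none higher (limma), 5943 genes were called, the transporters called higher were 3 in place of 1 (SLC2A1, adjusted p = 0.0495, and SLC16A3, 0.0379, added), the gluconeogenesis genes called lower 2 in place of 1 (FBP1, 0.0282), and the TCA cycle had 1 higher (OGDH, 0.0441) and 13 lower. The labels do not say that the suffix pairs libraries, and deviations of same-suffix libraries had r = 0.21 over genes.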

Other observations

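Each title ends in SZ or Z, shared by 1 input and 1 RIP library, with no meaning given. Of the 10 enzymes, 7 were higher in the Z library of both groups (HK1, HK2, PFKP, PGK1, ENO1, PKM and LDHA), beside 19.5% of all genes tested. A fit with group and suffix, chosen after the values were seen, gave HK2 a log2 difference of Z minus SZ of 1.60 (SE 0.46, limma adjusted p = 0.666) and ENO1 2.52 (SE 0.80, limma adjusted p = 0.666). In that fit no gene of the table passed (limma; with an unadjusted p under 0.05 there were 364 higher genes and 492 lower), and after quantile normalization 7 were higher and 7 lower, with none of the 10 among them. ENO1 on chromosome 1 and HK1 and PFKP on chromosome 10 lie where RIP 2 was raised over RIP 1 (medians 1.67 and 0.67). Every other chromosome had a negative median, so the 19.5% is not a like-for-like share for those genes. The lactate carrier gene SLC16A3 (MCT4) had the opposite order, at 50.2 and 23.0 FPKM in input, against 137 and 65.0 FPKM in RIP, and was chosen after its values were seen.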
